A study of Homo sapiens with 6 samples.

Results

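The ADAM and ADAMTS genes encode a family of zinc-dependent proteases and their protease-free relatives. Members were the protein-coding rows of the gene table whose symbols begin with ADAM, ADAMTS or ADAMTSL followed by a number, and 44 of the 58735 genes in the table met this rule. They comprised 20 ADAM, 19 ADAMTS and 5 ADAMTSL genes. RNA had been sequenced from MDA-MB-231, a human triple-negative breast cancer (TNBC) cell line, and from its Adriamycin-resistant derivative. The parent group (MB_parent) was the starting line, labelled WT, grown in DMEM with serum and antibiotics. The resistant group (MB_ADR12, written ADRr here) was derived from the same line by stepwise selection in rising concentrations of Adriamycin (ADR, doxorubicin) and isolated by limiting dilution, so it may represent a single clone, and differences between the groups include any that set that clone apart from the uncloned parent line. Whether ADR was present at harvest is not given in the sources used here. Each group had 3 libraries. Nothing in the labels says that these came from separate cultures, so p-values measure the spread between these libraries, which may be technical.

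ADAM proteins sit in the plasma membrane, and those with an active metalloprotease domain cut the extracellular part off other membrane proteins, a step called ectodomain shedding that releases growth factors, cytokines and adhesion molecules. ADAMTS proteins are secreted, bind the extracellular matrix through thrombospondin repeats and cut proteoglycans, procollagens and other matrix proteins, whereas ADAMTSL proteins keep the repeats but lack the protease domain. In breast cancer cells the family is known chiefly for releasing ligands of the epidermal growth factor receptor, for starting Notch signalling and for remodelling the matrix.

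Levels are given as FPKM, the deposited counts divided by gene length and library size, which allows genes to be compared. Changes are log2 fold changes of ADRr against parent from edgeR's quasi-likelihood test on the counts, with the standard error (SE) and the p-value adjusted over all 15242 genes tested. Calls required an adjusted p no greater than 0.05 together with a change of 1.2-fold or more in either direction. Total counts were 15983985 to 18272314 per library, and 3 counts, the limit that a count of 0 allows, equalled 0.164 to 0.188 CPM (counts scaled to library size), which covers counting error only. All 7 markers of MDA-MB-231 cells that were checked were above 1 CPM in both groups. Their summed level was 5310 to 5511 CPM in parent and 5552 to 5586 CPM in ADRr libraries, but single markers changed. In parent and ADRr cells, CAV1 (1008 and 408.7 CPM), AXL (1676 and 1090 CPM) and VIM (513.7 and 348.7 CPM) were called lower. EGFR (496.1 and 1305 CPM) and CD44 (853.7 and 1482 CPM) were called higher, and MSN and CAV2 were not called. Of 7 luminal markers, 4 were above 1 CPM in each group (ERBB2, GATA3, EPCAM and CDH1), the list summed to 166.4 to 191.4 CPM in parent and 108.2 to 116.2 CPM in ADRr cells, and the hormone receptor genes ESR1 and PGR had at most 1 count in any library. ERBB2 stood at 120.0 and 50.7 CPM, GATA3 at 30.6 and 26.2 CPM, EPCAM at 12.5 and 26.9 CPM and CDH1 at 14.7 and 7.03 CPM. Of 7 leukocyte markers, 6 were under 1 CPM in each group, with TYROBP at 0. The list summed to 3.60 to 4.88 CPM in parent and 1.22 to 2.45 CPM in ADRr cells, most of it from CSF1R (4.04 and 1.61 CPM). The 5 endothelial markers summed to 3.28 to 5.28 and 8.49 to 9.43 CPM, with 4 of them under 1 CPM and most of the sum from KDR (3.82 and 8.07 CPM). The 7 fibroblast markers summed to 93.4 to 97.8 and 28.4 to 31.2 CPM, with DCN at 0. PDGFRB gave 62.6 CPM of this in parent and 8.37 CPM in ADRr cells, and COL1A1 gave 28.0 and 18.2 CPM. In RNA from bulk cultures, fewer cells of a type and less RNA per cell cannot be told apart.

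Of the 44 members, 23 had enough counts to be tested and 19 of these were called, 8 higher and 11 lower in ADRr cells. The same rule called 58.8% of all tested genes, 29.2% as higher and 29.6% as lower, so most genes of this comparison changed. The median absolute log2 fold change was 1.04 over the 23 tested members and 0.46 over all tested genes, and 13 of the 23 members (56.5%) changed by 1 or more on the log2 scale, compared with 19.1% of all tested genes. The median signed log2 fold change of the members was -0.39, beside -0.01 over all tested genes. The 3 parent and 3 ADRr libraries did not overlap for 20 of the 23 members, as for 69.2% of all tested genes. These shares are descriptions and were not tested against each other.

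The start regions of 4 members are printed here because these genes mark the extremes of the pattern: ADAM8 rose most, ADAM17 and ADAM10 are the main sheddases and moved in opposite directions, and ADAMTSL1 fell most. Each runs 5′ to 3′ on the coding strand from 250 bases before to 50 bases after the start given by RefSeq (GRCh38.p14). Capitals mark GC boxes (GGGCGG on either strand) and matches to the NF-κB (κB) consensus on either strand, and no matches overlapped.
ADAM8, chr10:133276819-133277118, minus strand: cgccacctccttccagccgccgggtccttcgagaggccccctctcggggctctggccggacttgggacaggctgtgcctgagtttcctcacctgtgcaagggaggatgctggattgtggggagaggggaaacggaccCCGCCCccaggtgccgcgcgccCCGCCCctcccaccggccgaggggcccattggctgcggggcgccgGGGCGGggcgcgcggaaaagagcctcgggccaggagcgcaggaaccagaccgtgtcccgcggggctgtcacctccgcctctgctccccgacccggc
ADAM17, chr2:9555781-9556080, minus strand: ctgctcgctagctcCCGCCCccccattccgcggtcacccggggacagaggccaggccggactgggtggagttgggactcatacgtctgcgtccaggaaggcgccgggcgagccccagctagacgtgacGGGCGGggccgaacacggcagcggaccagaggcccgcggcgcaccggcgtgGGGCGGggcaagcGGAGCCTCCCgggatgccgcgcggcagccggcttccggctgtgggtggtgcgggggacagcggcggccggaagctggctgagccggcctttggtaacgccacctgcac
ADAM10, chr15:58749658-58749957, minus strand: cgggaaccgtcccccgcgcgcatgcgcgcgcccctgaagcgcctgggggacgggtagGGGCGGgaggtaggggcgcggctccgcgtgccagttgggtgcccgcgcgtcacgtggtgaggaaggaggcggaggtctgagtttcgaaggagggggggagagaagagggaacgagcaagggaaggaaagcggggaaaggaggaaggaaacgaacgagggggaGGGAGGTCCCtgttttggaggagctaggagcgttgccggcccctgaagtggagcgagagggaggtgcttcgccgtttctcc
ADAMTSL1, chr9:18473903-18474202, plus strand: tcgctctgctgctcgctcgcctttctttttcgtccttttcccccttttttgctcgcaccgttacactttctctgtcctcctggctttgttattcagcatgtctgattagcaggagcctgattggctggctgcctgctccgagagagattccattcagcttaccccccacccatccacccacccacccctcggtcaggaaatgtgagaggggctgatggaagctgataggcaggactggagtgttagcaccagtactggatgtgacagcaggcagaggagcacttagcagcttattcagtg

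In these windows ADAM8 held 3 GC boxes, starting 113, 91 and 46 bases before the start site. ADAM17 held 3 GC boxes and a κB match that began 58 bases before the start, and ADAM10 held 1 GC box and a κB match 31 bases before it. The ADAMTSL1 window held none of the motifs searched, with 8 CpG dinucleotides against 29 in ADAM8, 36 in ADAM17 and 30 in ADAM10. Its RefSeq start lies inside the longer gene span of the annotation used for counting. Windows were on hand for all 8 members called higher and for 6 of the 11 called lower, too few of the latter for the 2 groups to be compared. Among the 8 called higher, 7 held a GC box, with ADAMTS6 the exception, while 45.0% of the 35116 RefSeq start windows held one. GC boxes were common in the whole family, in 22 of 29 windows (75.9%), 4 of the 6 called lower and 8 of the 12 untested. The median CpG count was 31 for the 8 called higher, 28.5 for the 6 called lower, 28 for the 12 untested and 14 for all windows. GC boxes and high CpG counts were thus not particular to the members called higher. A κB match was in 1 of the 8 (ADAM17), in 3 of the 6 called lower and in 11.3% of all windows. None of the 8 held the AP-1 pattern TGANTCA, the STAT pattern TTCNNNGAA or TATAAA on either strand, which 7.71%, 7.66% and 11.5% of all windows held. The 6 called lower held no AP-1 or STAT match either, and 1 of them held TATAAA. Over all 29 member windows, 1 held the AP-1 pattern, 0 the STAT pattern and 3 TATAAA. A match describes letters in this window only.

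Among the 12 ADAM genes that encode an active protease, 8 were tested and all 8 were called, 4 higher and 4 lower. Calls also split evenly over all tested genes, of which 58.8% were called, 29.2% as higher and 29.6% as lower. ADAM8 (ENSG00000151651, chromosome 10, 133262403 to 133276868), a sheddase of leukocytes and invasive tumor cells, rose most. Its FPKM was 14.6, 12.7 and 16.1 in parent replicates 1 to 3 and 85.8, 93.2 and 86.6 in ADRr replicates 1 to 3. Every ADRr library was far above every parent library. The rise was 6.10-fold (log2 fold change 2.61, SE 0.069, adjusted p = 7.3e-19). ADAM17 (ENSG00000151694, chromosome 2, 9488486 to 9556732), also named TACE, releases TNF and several ligands of the epidermal growth factor receptor. ADAM17 stood at 4.55, 4.85 and 4.24 FPKM in parent and 9.82, 9.27 and 9.02 FPKM in ADRr libraries. This was a 2.06-fold rise (log2 fold change 1.04, SE 0.066, adjusted p = 3.4e-12), without overlap between groups.

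ADAM15, whose disintegrin domain carries an integrin-binding motif, was already abundant in parent cells at 26.4, 25.4 and 28.3 FPKM and reached 42.8, 45.8 and 44.9 FPKM in ADRr cells. Its log2 fold change was 0.73 (SE 0.054, adjusted p = 4.5e-11), and the groups did not overlap. ADAM12, a protease that sheds HB-EGF, was scarce in both groups. Its counts were 44, 35 and 25 in parent and 83, 92 and 101 in ADRr libraries, a log2 fold change of 1.33 (SE 0.23, adjusted p = 2.7e-05) at a level that stayed below 1 FPKM.

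ADAM10 (ENSG00000137845, chromosome 15, 58588807 to 58749978), the protease that cuts Notch receptors at the cell surface and acts as an α-secretase, fell most among the sheddases. Its FPKM was 34.4, 35.9 and 31.8 in parent and 10.2, 10.3 and 10.9 in ADRr libraries. The lowest parent library was well above the highest ADRr library. The level was 3.26-fold lower in ADRr cells (log2 fold change -1.70, SE 0.053, adjusted p = 1.4e-17). ADAM9, a widely expressed relative, was the most abundant member of parent cells at 58.8, 62.7 and 56.7 FPKM and stood at 37.0, 35.9 and 35.0 FPKM in ADRr cells, a log2 fold change of -0.73 (SE 0.051, adjusted p = 1.9e-11). ADAM19, which cuts neuregulins, read 8.96, 8.95 and 9.03 FPKM in parent and 4.86, 4.53 and 4.81 FPKM in ADRr libraries. That was a log2 fold change of -0.93 (SE 0.067, adjusted p = 3.3e-11). ADAM28, known to cut insulin-like growth factor binding protein, had 4.40, 4.49 and 4.35 FPKM against 1.82, 1.73 and 1.75 FPKM, a log2 fold change of -1.33 (SE 0.082, adjusted p = 2.5e-12). In all of these the groups were fully separated.

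Of the 8 ADAM genes without an active protease, 2 were tested. ADAM22, a receptor of the secreted protein LGI1 in neurons, had 272, 245 and 282 counts in parent and 71, 58 and 51 counts in ADRr libraries. The groups were far apart, and the log2 fold change of ADAM22 was -2.22 (SE 0.14, adjusted p = 5.4e-12). ADAM11, a related neuronal protein, had 61, 38 and 51 against 32, 33 and 46 counts, groups that overlapped, and was not called (log2 fold change -0.51, 95% interval -1.01 to -0.003, adjusted p = 0.088).

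Among the ADAMTS genes, 9 of 19 were tested and 7 were called, 4 higher and 3 lower, with a median log2 fold change of 0.07. For comparison, 58.8% of all tested genes were called in either direction. The 2 tested proteoglycanases, which cut aggrecan and versican, were both lower. ADAMTS15 (ENSG00000166106, chromosome 11, 130448974 to 130476641) was the second most abundant member of parent cells at 42.2, 38.5 and 42.0 FPKM and read 13.9, 14.5 and 14.5 FPKM in ADRr cells. The ADRr libraries lay close together and far below the parent libraries, with a log2 fold change of -1.52 (SE 0.056, adjusted p = 2.2e-16). ADAMTS9 had 5.69, 5.71 and 6.02 FPKM against 4.62, 4.21 and 4.46 FPKM, a smaller change of -0.39 (SE 0.067, adjusted p = 2.1e-05).

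ADAMTS14, which trims the amino end of procollagens, was the only procollagen N-propeptidase of 3 that could be tested. Its counts were 48, 57 and 60 in parent and 174, 166 and 181 in ADRr libraries, a log2 fold change of 1.58 (SE 0.16, adjusted p = 9.2e-09). The other two, ADAMTS2 and ADAMTS3, had at most 1 and 6 counts in any library.

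The remaining ADAMTS genes gave 6 tested members, 3 higher, 1 lower and 2 not called. ADAMTS17, a secreted protease linked to fibrillin microfibrils, rose most of these, from 32, 45 and 51 counts to 208, 191 and 229 counts (4.65-fold, log2 fold change 2.22, SE 0.17, adjusted p = 8.4e-11). ADAMTS7, which cuts cartilage oligomeric matrix protein, went from 90, 72 and 110 to 189, 194 and 190 counts, a log2 fold change of 1.01 (SE 0.15, adjusted p = 2.7e-06). ADAMTS6 had 2.60, 2.68 and 2.54 FPKM in parent and 4.79, 4.11 and 4.48 FPKM in ADRr cells, a log2 fold change of 0.77 (SE 0.084, adjusted p = 3.4e-08). All 3 were separated without overlap. ADAMTS16 was lower in ADRr cells, with 11.4, 11.1 and 10.6 FPKM against 7.73, 8.39 and 8.14 FPKM (log2 fold change -0.45, SE 0.067, adjusted p = 2.9e-06). ADAMTS12, a close relative of ADAMTS7, was nearly level at 14.9, 15.2 and 14.8 FPKM against 15.9, 15.6 and 15.8 FPKM. Its ADRr libraries were all above its parent libraries, yet the log2 fold change was 0.07 with a 95% interval of -0.03 to 0.17 and an adjusted p of 0.24. ADAMTS13, the protease of von Willebrand factor, had 11 to 23 counts per library in overlapping groups, and its log2 fold change of -0.37 had an interval of -1.12 to 0.38 (adjusted p = 0.40).

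The ADAMTSL genes were lower where they were called, with 3 of 4 tested genes lower, none higher and a median log2 fold change of -2.18. Over all tested genes 29.6% were called lower and 29.2% higher. ADAMTSL1 (ENSG00000178031, chromosome 9, 17906563 to 18910950), a secreted matrix protein also named punctin, had 500, 539 and 528 counts in parent and 13, 4 and 3 counts in ADRr libraries. ADRr libraries were thus close to the counting limit. The level was 81.1-fold lower (log2 fold change -6.34, SE 0.21, adjusted p = 4.0e-17), and -7.22 without ADRr replicate 1, which held most of the remaining counts. ADAMTSL4, a partner of fibrillin, had 7.51, 7.22 and 8.88 FPKM against 3.00, 2.81 and 2.55 FPKM, a log2 fold change of -1.50 (SE 0.093, adjusted p = 2.5e-12). ADAMTSL2, which also binds fibrillin and the TGF-β binding protein LTBP1, went from 34, 28 and 37 counts to 7, 7 and 0 counts. Its log2 fold change was -2.85 (SE 0.50, adjusted p = 3.0e-05) and was -2.26 without ADRr replicate 3, the library at 0. ADAMTSL5 had 6.06, 5.27 and 6.59 FPKM against 6.63, 7.66 and 6.61 FPKM and was not called (log2 fold change 0.21, 95% interval 0.02 to 0.41, adjusted p = 0.062).

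The other 21 members were too low to test, and 9 of them had no count in any library. These 9 were ADAM2, ADAM7, ADAM20, ADAM30, ADAM33, ADAMTS5, ADAMTS10, ADAMTS18 and ADAMTS19. ADAM18, ADAM23, ADAMTS1, ADAMTS2 and ADAMTSL3 reached 1 count at most, and ADAM21, ADAMTS4 and ADAMTS20 reached 2 counts. ADAM29 had at most 4 counts, ADAMTS3 6 counts and ADAM32 9 counts. The aggrecanases ADAMTS4 and ADAMTS5, well known from cartilage, were therefore not detectable above a few counts at this depth. ADAMTS8, another proteoglycanase, had 14, 5 and 5 counts in parent and 2, 1 and 1 in ADRr libraries.

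Summed over the family, levels in the groups lay close together, while the genes that made up the sum differed. The FPKM of all 44 members added up to 249.3, 247.3 and 248.8 in parent and 254.9, 264.4 and 255.7 in ADRr libraries (248.4 ± 1.04 and 258.3 ± 5.29, mean ± SD, n = 3 each). An exact two-sided permutation test gave p = 0.1, which is the smallest value that 3 against 3 libraries allow, for this sum and for every share and ratio of this and the next paragraph except the share of ADAMTS12 (exact p = 0.7). Summed ADAM transcripts stood at 154.7 ± 2.13 FPKM in parent and 196.6 ± 4.77 FPKM in ADRr cells. The ADAMTS sum was 77.2 ± 1.92 and 51.8 ± 0.27 FPKM, and the ADAMTSL sum 16.5 ± 1.41 and 9.84 ± 0.70 FPKM. ADAM8 made up 5.82 ± 0.68% of the family sum in parent and 34.3 ± 0.87% in ADRr cells. ADAM9 accounted for 23.9 ± 1.32% and 13.9 ± 0.52%, ADAM10 for 13.7 ± 0.86% and 4.06 ± 0.19%, and ADAMTS15 for 16.5 ± 0.77% and 5.53 ± 0.11%. The share of ADAMTS12 was 6.03 ± 0.11% and 6.10 ± 0.17%.

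The order of levels was rearranged accordingly. In parent cells the members followed each other from ADAM9 (59.4 ± 3.06 FPKM) through ADAMTS15 (40.9 ± 2.09 FPKM), ADAM10 (34.0 ± 2.05 FPKM) and ADAM15 (26.7 ± 1.46 FPKM) to ADAMTS12 (15.0 ± 0.22 FPKM) and ADAM8 (14.4 ± 1.74 FPKM), and of these neighbours in the order only ADAMTS12 and ADAM8 overlapped between libraries. In ADRr cells ADAM8 came first at 88.5 ± 4.08 FPKM, followed by ADAM15 (44.5 ± 1.58 FPKM), ADAM9 (36.0 ± 1.01 FPKM), ADAMTS12 (15.8 ± 0.14 FPKM), ADAMTS15 (14.3 ± 0.31 FPKM) and ADAM10 (10.5 ± 0.38 FPKM), with no overlap between neighbours. ADAM17 moved from rank 12 to rank 7. The FPKM ratio of ADAM17 to ADAM10, a pair known for overlapping substrates, was 0.132, 0.135 and 0.133 in parent and 0.963, 0.897 and 0.827 in ADRr libraries. ADAM10 was thus 7.49 ± 0.086 times the level of ADAM17 in parent and 1.12 ± 0.086 times in ADRr cells. The ratio of ADAM8 to ADAM9 was 0.245 ± 0.041 in parent and 2.46 ± 0.14 in ADRr cells.

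**Figure D1:**
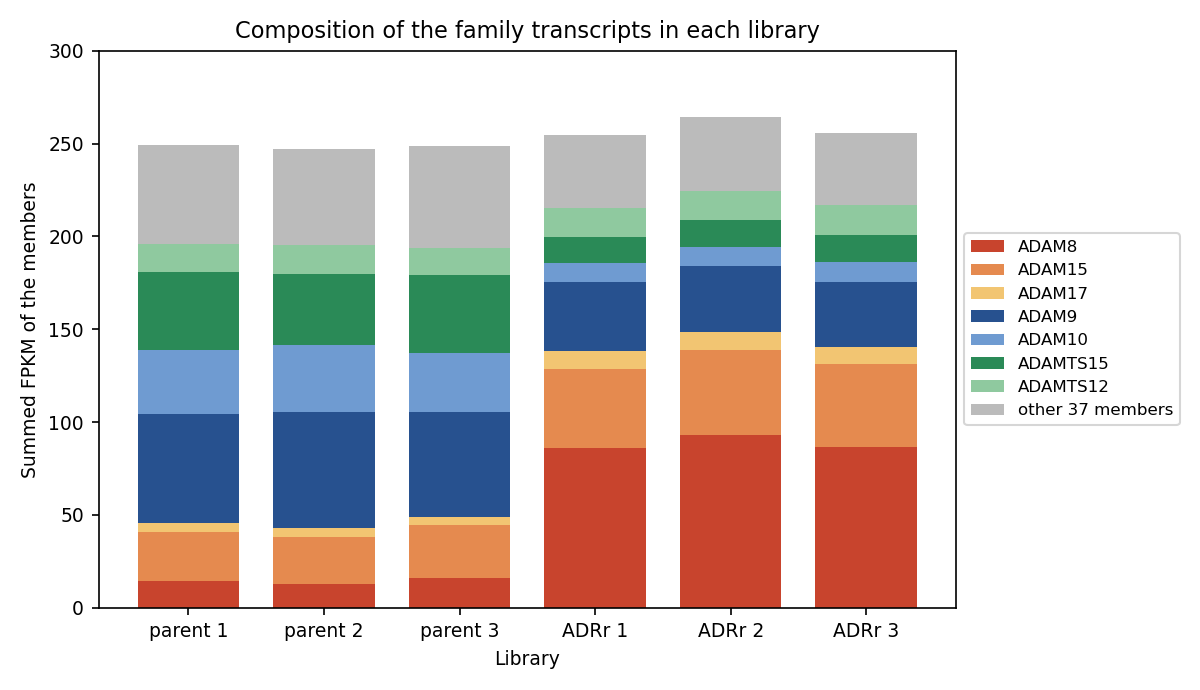
Stacked FPKM of the 44 members in each library, with the 7 leading or most discussed members in color and the other 37 in grey. The height of the bars lies between 247.3 and 264.4 FPKM, while the red ADAM8 segment takes about 5.82% of the parent bars and 34.3% of the ADRr bars.

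Proteins that inhibit, mature or escort the family were read from lists written by hand, with earlier results of these data known. Of 7 inhibitors and endocytic receptors, 6 were tested, 1 was called higher and 4 lower, with a median log2 fold change of -0.75. Among all tested genes 58.8% were called, 29.2% as higher and 29.6% as lower. TIMP1, an inhibitor of metalloproteases that blocks ADAM10, rose from 97.5 ± 5.04 to 163.9 ± 5.41 FPKM (log2 fold change 0.74, adjusted p = 3.8e-11). TIMP3, the inhibitor with the widest action on ADAM and ADAMTS proteases, stood at 29.8 ± 0.75 and 35.8 ± 0.90 FPKM. Its log2 fold change of 0.26 (adjusted p = 1.4e-04) lay just under the 1.2-fold threshold and passed it in 8 of the alternatives. TIMP2 was lower (-0.40), as was TIMP4 (-1.32), which was scarce at 1.43 ± 0.24 and 0.57 ± 0.25 FPKM. RECK, a membrane-anchored inhibitor of ADAM10, showed the largest fall of the list, from 5.31 ± 0.32 to 1.82 ± 0.22 FPKM (log2 fold change -1.55, adjusted p = 7.2e-12). LRP1, the receptor that clears ADAMTS proteases and TIMPs from the cell surface, was also lower (-1.10), and A2M had no counts.

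Of 13 maturation and escort factors, 11 were tested, 4 were called higher and 2 lower, with a median log2 fold change of 0.22. The 6 called of 11 tested lie near the share of all tested genes that were called, 58.8%. The iRhoms that carry ADAM17 to the cell surface were both higher, RHBDF2 from 6.74 ± 0.77 to 12.1 ± 0.53 FPKM (log2 fold change 0.83, adjusted p = 1.6e-09) and RHBDF1 from 10.9 ± 0.99 to 13.7 ± 0.56 FPKM (0.32, adjusted p = 4.7e-04). FRMD8, which stabilises the iRhom complex, was not called (-0.10, adjusted p = 0.18). Tetraspanins of the TspanC8 group, which escort ADAM10, went in different directions. TSPAN5 (0.41) and TSPAN17 (0.28) were called higher and TSPAN15 (-0.38) lower. TSPAN10 (0.43), TSPAN33 (0.22) and TSPAN14 (-0.25) were not called. TSPAN17 lost its call without parent replicate 2 (0.22) or without ADRr replicate 2 (0.25). FURIN, the convertase that removes the propeptide of ADAM and ADAMTS precursors, fell from 60.5 ± 5.17 to 31.8 ± 0.72 FPKM (log2 fold change -0.93, adjusted p = 3.1e-12).

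Of 36 shedding substrates, 30 were tested and 29 were called, 18 higher and 11 lower, with a median log2 fold change of 0.60. Of all tested genes 58.8% were called in either direction. The substrate list was written with earlier results of these data known, and the 2 shares were not tested against each other. IL6R, the interleukin-6 receptor that ADAM10 and ADAM17 can release in soluble form, had 13, 5 and 13 counts in parent and 181, 167 and 179 counts in ADRr libraries. CX3CL1, a membrane-bound chemokine cut by both sheddases, went from 1.95 ± 0.36 to 11.2 ± 0.30 FPKM (log2 fold change 2.52, adjusted p = 7.1e-16). TNFRSF1B, a TNF receptor shed by ADAM17, went from 6.72 ± 0.48 to 32.5 ± 1.84 FPKM (2.27, adjusted p = 1.4e-17). The 3 largest falls were in CDH2 (log2 fold change -1.59), EGF (-1.44) and ALCAM (-1.28), known substrates of ADAM10 or, for ALCAM, of ADAM17. Among these 3, ALCAM alone was abundant, at 59.5 ± 4.85 FPKM in parent and 24.5 ± 0.59 FPKM in ADRr cells. TNF, the substrate that gave ADAM17 its other name, had at most 14 counts and was not tested.

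Of 20 matrix substrates of ADAMTS proteases, 9 were tested, 3 were called higher and 4 lower, with a median log2 fold change of -0.16. Beside these calls stand 58.8% of all tested genes. RELN, cut by several ADAMTS proteases, rose from 2, 7 and 4 to 63, 45 and 42 counts (log2 fold change 3.42, adjusted p = 2.2e-07), and by 3.96 without parent replicate 2. TFPI2, a serine protease inhibitor, rose from 106.1 ± 1.28 to 445.2 ± 6.12 FPKM (2.06) and FN1, fibronectin, from 13.9 ± 0.41 to 17.5 ± 0.33 FPKM (0.32). COL1A2, a chain of type I collagen and so a substrate of ADAMTS14, had 1192, 1060 and 1182 counts in parent and 4, 11 and 5 counts in ADRr libraries, a log2 fold change of -7.47 (-8.07 without ADRr replicate 2). COL5A1, a chain of type V collagen (-1.13), and THBS1, thrombospondin (-1.70), were lower as well. The proteoglycans VCAN and ACAN, substrates of ADAMTS15 and ADAMTS9, reached at most 10 and 2 counts and were not tested.

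Of 13 integrin chains and LGI proteins that bind ADAM proteins, 7 were tested and all 7 were called, 4 higher and 3 lower. The share called among all tested genes was 58.8%. ITGA5 rose from 16.8 ± 0.62 to 38.7 ± 0.65 FPKM, ITGB3 (log2 fold change 0.69) and ITGA3 (0.63) were higher, and ITGB5 (-1.13), ITGAV (-0.50) and ITGB1 (-0.48) were lower. The LGI genes, whose products bind ADAM22, had at most 3 counts in any library. The related genes THSD4 and PAPLN, which share domains with ADAMTSL proteins but not the name, were tested and not called, at -0.16 and -0.19, and ADAMDEC1 had no counts.

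Members lie scattered over the genome, with some close to another member, and the genes around some of them mostly went one way in ADRr cells. Each tested member was therefore set beside 50 tested genes around it, 25 on each side where the chromosome allowed. Near a chromosome end the window was shifted inward. That of ADAM8 ran from base 122879681 to 133523558 and so lay mostly on 1 side of the gene. Of the 23 tested members, 7 lay above the upper quartile of these neighbours, 11 below the lower quartile and 5 between the quartiles. Of the 19 called members, 12 had the same sign as the median of their neighbours. ADAM8 (log2 fold change 2.61) lay in a stretch with a neighbour median of 0.52, in which 31 neighbours were called higher and 2 lower, but just 1 neighbour was above it. ADAM12, near the same chromosome end and sharing neighbours with ADAM8, had a neighbour median of 0.63. ADAM17 had a neighbour median of 0.65 with 33 neighbours higher and 4 lower, and 15 of the 50 exceeded its own 1.04, so its change was within the range of its surroundings. ADAM10, at -1.70, had a neighbour median of -0.56 with 31 neighbours lower, and 3 neighbours fell below it.

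Several other members went against their surroundings or far beyond them. ADAMTS17 (2.22) and ADAMTS7 (1.01), both on chromosome 15 like ADAM10, had neighbour medians of -0.40 and -0.53. ADAMTS9 did neither. It fell by less than its neighbours did in the median (-0.39 against -0.58) and lay between their quartiles (-0.77 and -0.14). For ADAM22, ADAMTS15, ADAMTSL4 and ADAMTSL1 the neighbour medians were 0.16, -0.21, -0.03 and -0.15, and no neighbour of ADAMTSL1 was as low. ADAMTSL2 lies 72.8 kb from ADAMTS13, and its neighbours had a median of 0.02. ADAMTS15 lies 20.0 kb from ADAMTS8 and ADAM9 1.84 kb from ADAM32, and both of these partners were too low to test. What part the surrounding stretch has in the change of any member was not tested.

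**Figure D2:**
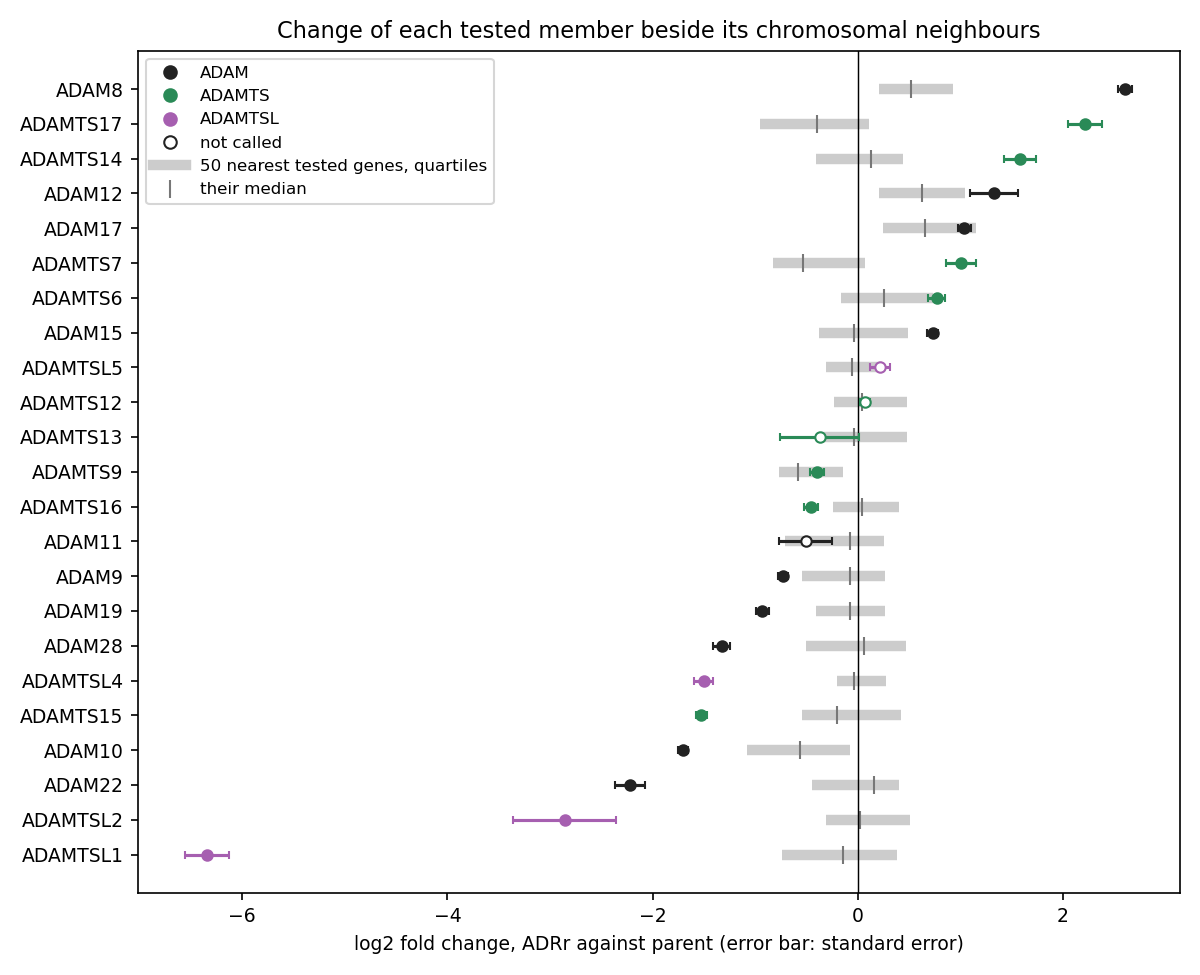
Log2 fold change of ADRr against parent for the 23 tested members, with standard errors, ordered by size and colored by subfamily, open where not called. Grey bars span the quartiles of the 50 nearest tested genes and ticks mark their median; ADAM17 (1.04) lies within its bar, ADAM8 (2.61) and ADAMTS17 (2.22) lie far to the right of theirs, and ADAMTSL1 (-6.34) far to the left.

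Several members overlap genes on the other strand. Whether counting used strand is not given in the sources used here, so how reads in the shared bases were assigned is not known. ADAMTS13, with 11 to 23 counts per library, shares 3739 bases with REXO4, which had 742 to 939 counts and was not called. ADAM17 shares 8058 bases with IAH1, which was higher too (422, 351 and 511 counts in parent, 779, 672 and 801 in ADRr libraries, log2 fold change 0.74). ADAMTS7 shares 945 bases with the abundant MORF4L1, which was lower (-0.84) while ADAMTS7 was higher. An antisense gene within ADAM10, AC018904.1, had 16, 30 and 19 counts against 5, 4 and 5 counts, and a similar gene at ADAMTSL4, AL356356.1, had 15, 15 and 14 against 6, 4 and 5 counts. Both fell together with the member they overlap. ADAMTS7 also has near-identical pseudogene copies, which had 0 to 4 counts in any library, so how reads were divided between the copies is uncertain.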

How the data were processed

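Per the methods, polyadenylated RNA was made into CORALL libraries and sequenced in pairs; the labels describe another kit. The submitters' processing notes name fastp, HISAT2 2.0.5, featureCounts 1.5.0-p3 and GRCh38. The authors deposited raw whole-number counts for each gene and FPKM values made from them. A mention of 3 time points in the series record is not tied to any library.

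Counts of all 6 libraries (3 per group) were analysed with edgeR 4.0.16 (R 4.3.3): filterByExpr, TMM, quasi-likelihood test, Benjamini-Hochberg adjustment over 15242 genes. edgeR replaced the authors' DESeq2 1.20.0. Adjusted p and fold thresholds (0.05 and 1.2) followed the methods. Intervals are 1.96 SE on each side, an approximation that runs narrower than 95% intervals of the quasi-likelihood test. No per-sample column was left unused. Alternatives used DESeq2 1.42.0, limma 3.58.1 on FPKM, other scalings and filters, a replicate block, each library left out, and other call rules. The tests were checked on simulated data.

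Members and lists were chosen with earlier results of these data known. Named were all members, the 3 largest rises and falls per list, and fixed regulators of ADAM10 and ADAM17.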

Additional observations from a re-analysis of the deposited data

How the results depend on the processing

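The 19 member calls were the same in every alternative fit that tested them at the 1.2-fold threshold, each library left out included. ADAMTSL1 and ADAMTSL2 were not tested where at least 10 counts were required in every library, and ADAM12 and ADAMTSL2 not where the mean FPKM had to reach 0.5. No direction reversed. Requiring 1.2 or more on the log2 scale, in either direction, left 11 members called (4 higher, 7 lower), 18 of the companion genes instead of 54, and 2086 of all genes instead of 8958, by construction of the rule, and ADAM9, ADAM15, ADAM17, ADAM19, ADAMTS6, ADAMTS7, ADAMTS9 and ADAMTS16 were the members lost. ADAMTS8 was added as lower with DESeq2 (log2 fold change -2.66, adjusted p = 0.046) and with no filter (-2.55, adjusted p = 0.017). ADAM11 was called lower without parent replicate 2 (-0.64, adjusted p = 0.039) and ADAMTSL5 higher without parent replicate 3 (0.29, adjusted p = 0.013).

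On log2(FPKM + 1), fold changes of low members shrank by construction, ADAMTSL1 to -1.66 and ADAM22 to -0.84. TSPAN17 fell below the threshold without parent replicate 2 or ADRr replicate 2, ITGA6 without parent replicate 3, and BTC without parent replicate 1 or ADRr replicate 2 and in 2 other fits. TIMP3 and TSPAN14 crossed it upward in 8 and 2 alternatives, PAPLN without parent replicate 2, and RELN and ITGB3 were lost on log2(FPKM + 1) with no filter.

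Replicate numbers did not pair the libraries: deviations from the group means of same-numbered libraries correlated at 0.007, -0.021 and -0.046 across genes, and no parent library correlated best with the ADRr library of its own number. With a replicate block, 19 members and 8870 genes were called.

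The 21 untested members, of which 9 had no count, were too low to test at this depth, so the main test says nothing of their change.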
